A study of Homo sapiens with 46 samples.

Results

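The exons described here are cassette exons, which are either kept in or skipped from an mRNA as a whole, of 31 to 299 bases with a length that does not divide by 3. They were taken from the cassette events of 4 tables of splicing levels by the length of the middle exon alone. In all, 124017 of the 298384 splicing events met that rule. They stood for 63950 distinct exons of 14589 genes, because an exon can enter several events with different neighbours (median 1 event per exon, highest 35). Another 80183 events held cassette exons of the same size range whose length divides by 3.

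Skipping or adding such an exon moves the reading frame of every codon behind it. The shifted frame usually meets a stop codon early, and an mRNA with a stop well upstream of its last exon junction is a substrate of nonsense-mediated decay, the pathway that degrades such messages. Exons whose inclusion creates the early stop are called poison exons, and the genes of splicing factors, TRA2B and its relative TRA2A among them, use them to limit their own mRNA. TRA2B is an RNA-binding splicing activator that prefers GA-rich sequence with AGAA at its core and mostly promotes inclusion of the exon it binds.

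The 46 RNA-seq libraries came from 14 groups. MDA-MB-231 breast carcinoma cells and U87MG glioblastoma cells, 2 established lines, were transfected with ASO-1570, an antisense oligonucleotide against TRA2B, or with the control oligonucleotide ASO-CTL, at 200 nM or at 50 nM. The same lines received siRNA-TRA2B or siRNA-CTL at 10 nM in a separate set, and RNA was taken after 48 h in every cell line group, each of 3 libraries. Tumours of 1 breast cancer patient-derived xenograft (PDX) model grown in mice were injected with ASO-1570 or ASO-CTL at 50 mg/kg, 5 tumours per group. The labels call the mice immunocompetent and give a genotype for none of the groups ("NA" at 200 nM, no entry elsewhere). Nothing in the labels says that the 3 libraries of a cell line group came from separate cultures, so p-values measure the spread between these libraries, which may be technical.

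Library totals were 259.9 to 356.8 M gene counts (M, mega) at 200 nM, at most 112.8 M in the 50 nM and siRNA sets and 75.3 to 109.6 M in the tumours. Mitochondrial transcripts took 17.65 to 75.31% of the counts of a tumour and at most 3.16% in the cell line libraries. One label of the MDA-MB-231 libraries at 50 nM and with siRNA calls the cells glioblastoma; the summed level of 5 breast epithelial markers there was 1130 to 1450 CPM (counts scaled to an equal library total), against 3.92 to 7.45 CPM in U87MG at 50 nM and with siRNA. In U87MG the glial marker GFAP was at 2.45 CPM or less in the control libraries at 200 nM and with siRNA. In MDA-MB-231 its ASO-CTL mean at 200 nM was 3.1 CPM. Other glioblastoma markers had these ASO-CTL means at 200 nM, in U87MG and then MDA-MB-231. TNC was at 2300 and 104 CPM, CD44 at 2150 and 1010, and NES at 30.3 and 22.5. OLIG2 was at 3.23 and 0.0 CPM, and SOX2 at 0.0314 and 0.0287. At 200 nM, TRA2B mRNA was 157 CPM with ASO-CTL and 76.7 CPM with ASO-1570 in U87MG, a log2 change of -1.03 (edgeR adjusted p = 3.84e-07), while MDA-MB-231 had 198 and then 109 CPM (log2 change -0.87, adjusted p = 6.89e-06). With siRNA it fell by 2.83 in U87MG and by 3.11 in MDA-MB-231 on the log2 scale. In the tumours the TRA2B means were 105 and 94.5 CPM (log2 change -0.16, adjusted p = 0.707).

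Matched to GENCODE release 29 (GRCh38, the build of the deposited coordinates), 70.9% of the 63950 exons were internal coding exons. Another 6.67% lay only in transcripts annotated as decay targets, 10.5% only in other noncoding transcripts, 5.42% in untranslated regions (UTRs), 4.76% held a start or stop codon, and 1.69% matched no annotated exon end to end. Translation across the junction gave an early stop, more than 50 bases before the last junction, for 38040 of 45395 coding exons when the exon was left out (83.8%). Of 4642 exons absent from coding transcripts that lie between coding exons, inclusion gave an early stop in 3992 (86.0%), inside the exon itself in 3122. Skipping the coding exons and including the noncoding ones therefore have the same predicted result, a message with an early stop.

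The sequences of 7 of these exons are shown because the results turn on them. They run 5′ to 3′ on the strand of the gene as in GENCODE release 29. The exons of PTAR1, MAIP1 and DNAAF4-CCPG1 were skipped more after both the ASO in U87MG and the siRNA. The TRA2A exon belongs to a decay transcript of TRA2B's closest relative. That of ATR was skipped after the ASO and stayed at a mean PSI of 0.988 or more in the siRNA groups. Those of YY1AP1 and ZNF440 differed between ASO-1570 and ASO-CTL in both lines at both doses. Capitals mark AGAA.
PTAR1 (chr9:69750781-69750950, minus strand): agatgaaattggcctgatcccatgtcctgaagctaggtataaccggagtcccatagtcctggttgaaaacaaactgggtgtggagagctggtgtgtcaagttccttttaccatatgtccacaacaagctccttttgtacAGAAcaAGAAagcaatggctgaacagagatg
MAIP1 (chr2:199961781-199961928, plus strand): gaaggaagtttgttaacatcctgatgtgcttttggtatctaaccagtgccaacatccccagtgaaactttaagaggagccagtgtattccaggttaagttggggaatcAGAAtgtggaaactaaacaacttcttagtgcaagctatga
DNAAF4-CCPG1 (chr15:55450222-55450367, minus strand): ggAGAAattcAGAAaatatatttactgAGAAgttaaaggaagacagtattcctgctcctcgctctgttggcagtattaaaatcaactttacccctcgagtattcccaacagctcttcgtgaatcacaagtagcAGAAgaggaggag
TRA2A (chr7:23522354-23522432, minus strand): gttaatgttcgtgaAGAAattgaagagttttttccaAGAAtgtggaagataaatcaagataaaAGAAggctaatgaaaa
ATR (chr3:142568063-142568154, minus strand): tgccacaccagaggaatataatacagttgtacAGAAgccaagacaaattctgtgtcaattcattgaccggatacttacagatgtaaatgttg
YY1AP1 (chr1:155680416-155680456, minus strand): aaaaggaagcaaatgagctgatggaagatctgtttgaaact
ZNF440 (chr19:11830274-11830409, plus strand): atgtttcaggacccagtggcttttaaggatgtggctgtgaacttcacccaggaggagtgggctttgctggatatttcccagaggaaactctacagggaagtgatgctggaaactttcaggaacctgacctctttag
AGAA was counted on the gene strand with overlaps allowed. It occurred 3 times in the 79 bases of the TRA2A exon, 4 times in the DNAAF4-CCPG1 exon, 2 times in that of PTAR1, 1 time each in those of MAIP1 and ATR, and not at all in those of YY1AP1 and ZNF440. Over all 62870 annotated frame-shifting exons, 58.3% held AGAA at least once and the mean density was 0.9 per 100 bases.

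The first comparison asked which of these exons changed with ASO-1570. The level of an exon is its percent spliced in (PSI), the share of transcripts that keep it, written as a fraction from 0 to 1. An event counted as called when limma's moderated test over every splicing event of the table gave a Benjamini-Hochberg adjusted p below 0.05 and the mean PSI differed by at least 0.10. In U87MG at 200 nM, 5241 of 30695 tested frame-shifting events had lower PSI (17.1%) and 1319 higher PSI (4.3%), beside 14.1% lower and 5.46% higher among all splicing events. The 5241 events covered 4428 exons of 2935 genes, and their median PSI change was -0.22. A PSI change of 0.5 or more was seen in 624 of the events called lower and 96 of those called higher. At 50 nM in U87MG, 2921 of 24355 events were lower (12.0%) and 795 higher (3.26%), beside 9.94% and 3.83% of all events.

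In MDA-MB-231 far fewer events passed. At 200 nM, 315 of 24191 were lower (1.3%) and 76 higher (0.314%), beside 1.03% and 0.394% of all events, and at 50 nM 36 were lower and 10 higher of 19257, beside 0.122% and 0.0766% of all events. The median change of the events called lower was -0.358 at 200 nM and -0.588 at 50 nM, so that mostly large changes passed there. Over the 5095 events that were lower in U87MG at 200 nM, the median PSI of the 3 MDA-MB-231 ASO-1570 libraries was 0.901, 0.901 and 0.949, against 0.992, 0.992 and 0.996 in its control libraries. Treated library 3 stood nearer to the controls than the other 2, and at 50 nM, over 2861 events lower in U87MG at that dose, the treated medians were 0.882, 0.913 and 0.959. Without treated library 3 of the dose the count in MDA-MB-231 was 1041 at 200 nM and 208 at 50 nM, and without control library 2 it was 66 at 200 nM. At 50 nM it was 14 without treated library 1, and in U87MG at 50 nM it was 1420 without control library 2. Cassette exons whose length divides by 3 gave similar shares in U87MG at 200 nM, with 18.7% lower and 4.65% higher.

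**Figure D1:**
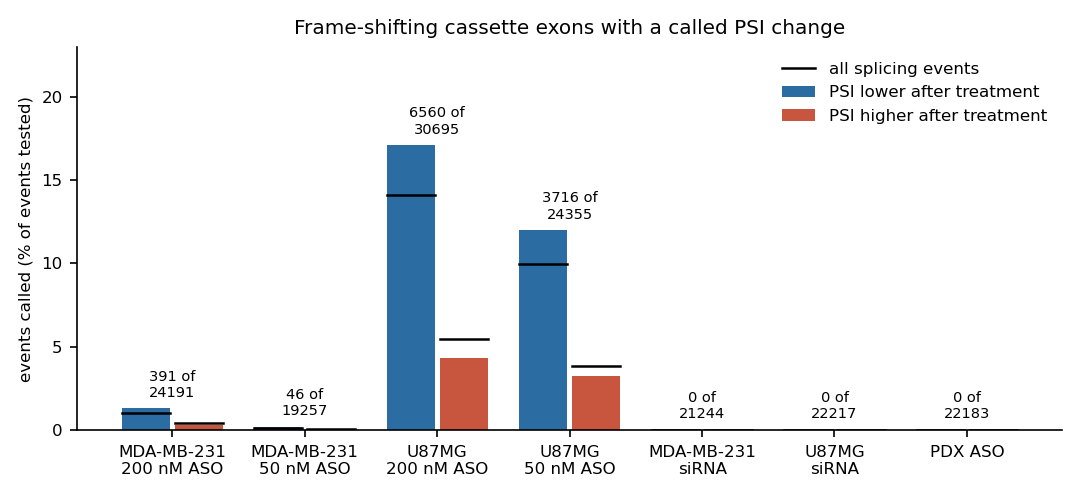
Share of tested frame-shifting events called with lower PSI (blue) or higher PSI (red) in each of the 7 comparisons, in percent, with black lines for all splicing events of the same table and the number called of the number tested above the bars. U87MG stands highest at both doses, with 6560 and 3716 events, and both siRNA comparisons and the PDX stand at 0.

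In U87MG, coding exons were called lower far more often than higher, and exons absent from coding transcripts that overlap no coding exon were called higher more often than lower. Among U87MG events at 200 nM that pass over no other exon of the first-ranked coding transcript, 1719 of 7753 coding exon events were lower (22.2%) and 156 higher (2.01%), from a median control PSI of 0.98. Of 1715 events of exons that are absent from coding transcripts and overlap no coding exon, 78 were lower (4.55%) and 206 higher (12.0%), from a median control PSI of 0.144. An exon near 1 can only go down and an exon near 0 can only go up, and that part of the difference was not tested. Of all 2752 events of exons absent from coding transcripts, with or without such overlap, 9.27% were lower and 9.92% higher. In UTRs, 8.09% were lower and 9.88% higher. At 50 nM the coding exons were lower in 16.2% and higher in 1.58%. Exons absent from coding transcripts and without such overlap were lower in 3.13% and higher in 9.0%. With or without overlap, that class was lower in 6.18% and higher in 7.16%. MDA-MB-231 at 200 nM did not show the second pattern. There 1.37% of 5114 coding exon events were lower and 0.313% higher. Of 1465 events of exons absent from coding transcripts and without such overlap, 9 were lower (0.614%) and 7 higher (0.478%). At 50 nM 3 of those exons were lower and 2 higher. Cassette exons whose length divides by 3 went the same ways in U87MG at 200 nM. Host genes with such a coding exon called lower numbered 1354, and called higher 258. For exons of that kind absent from coding transcripts and without such overlap, they numbered 39 and 87.

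A few exons differed between the ASO arms in both lines at both doses: 14 were called lower and 4 higher in all 4 ASO comparisons of the cell lines. The values of a named exon are those of 1 event, the one with the smallest p, and other events of the same exon can differ, as given for U87MG at 200 nM beside the exons below. ZNF440, a zinc finger gene of the KRAB family, kept its 136-base coding exon in the U87MG control libraries at 200 nM at PSI 0.891, 0.808 and 0.96, and in the ASO-1570 libraries at 0.149, 0.122 and 0.13 (change -0.75, limma adjusted p = 0.000528). The MDA-MB-231 exon went from 0.943, 0.992 and 0.948 to 0.229, 0.266 and 0.363. The treated libraries lay far below the controls in both lines with no overlap, while with siRNA in U87MG the means were 0.868 and 0.885. A second event of the exon was at -0.159 and was not called.

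The 140-base exon of TRNT1, the enzyme that adds CCA to tRNA, lies only in decay transcripts and had PSI 0.771, 0.656 and 0.802 in U87MG controls at 200 nM and 0.036, 0.024 and 0.025 with ASO-1570. MDA-MB-231 showed the same pattern, with control means of 0.97 and treated means of 0.161. TRNT1 mRNA rose in both lines at 200 nM, by 0.28 in U87MG (edgeR adjusted p = 0.00791) and by 0.74 in MDA-MB-231 (adjusted p = 7.52e-05). GORAB, a Golgi protein, held a 188-base exon of the same class that went from a mean of 0.971 to 0.096 in U87MG and from 0.737 to 0.164 in MDA-MB-231, with gene changes of -0.07 and -0.01 that did not pass. The other event of that exon changed by -0.15 in U87MG and was at -0.071 in MDA-MB-231, where it was not called. The 187-base exon of RPS27L, a ribosomal protein paralog, and the 125-base exon of SCPEP1, a serine carboxypeptidase, completed this group: they went from means of 0.905 to 0.016 and of 0.862 to 0.145 in U87MG at 200 nM. The RPS27L event also passes over 1 other exon, so its PSI is not that of the 187 bases alone.

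Of the exons called higher in all 4 comparisons, YY1AP1, a transcription cofactor gene, had a 41-base coding exon at PSI 0.257, 0.246 and 0.226 in U87MG ASO-CTL libraries at 200 nM and 0.977, 0.955 and 0.976 with ASO-1570 (change 0.73, limma adjusted p = 0.000163). MDA-MB-231 gave 0.35, 0.367 and 0.362 and then 0.952, 0.951 and 0.945. Of 5 events of this exon, 3 were called higher in each line, and the changes ran from 0.037 to 0.726 in U87MG and from 0.038 to 0.59 in MDA-MB-231. Leaving the exon out gives a stop 2 codons past the junction. YY1AP1 mRNA rose by 0.41 in U87MG (edgeR adjusted p = 0.000228) and was at -0.15 in MDA-MB-231 (adjusted p = 0.121). PARP11, a mono-ADP-ribosyltransferase, had its 76-base exon at a mean of 0.103 in U87MG controls and 0.996 with ASO-1570. FCF1, a factor of small ribosomal subunit assembly, had a 136-base exon at 0.059 and 0.8, and a second event of it was at 0.179 and was not called.

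These 3 exons started low with ASO-CTL but not with siRNA-CTL. With siRNA-CTL the mean PSI of the U87MG exon was 0.973 in YY1AP1, 0.997 in PARP11 and 0.985 in FCF1, so for YY1AP1 and PARP11 the ASO-1570 means, and not the ASO-CTL means, lay at the siRNA control level. The FCF1 mean of 0.8 with ASO-1570 lay nearer to that level than the 0.059 with ASO-CTL but below it. VPS29, a retromer subunit, had an exon of the same kind: its 236-base coding exon was at 0.503, 0.487 and 0.468 with ASO-CTL, at 0.961, 0.96 and 0.962 with ASO-1570 and at 0.969, 0.979 and 0.973 with siRNA-CTL. PIKFYVE, the lipid kinase that makes PI(3,5)P2, had a 104-base coding exon at a mean of 0.36 with ASO-CTL, 0.994 with ASO-1570 and 0.991 with siRNA-CTL in U87MG. Its mRNA rose by 1.55 between the ASO arms (edgeR adjusted p = 2.78e-05), and its MDA-MB-231 values at 200 nM were 0.545 and 0.995 with a gene change of 0.72 (adjusted p = 0.0124).

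Such exons were a minority of the calls. The ASO and siRNA sets come from separate tables, so levels are set side by side without a test. Of 1661 U87MG events called lower at both doses, the siRNA-CTL mean was nearer to the ASO-CTL mean in 97.7%, with medians of 0.968 (ASO-CTL), 0.659 (ASO-1570) and 0.972 (siRNA-CTL). Of 490 events called higher at both doses, it was nearer to ASO-1570 in 112 (22.9%). In MDA-MB-231, where calls at 200 nM with the same sign at 50 nM were taken, it was nearer to ASO-1570 in 29 of 51 events called higher (56.9%) and in 4 of 180 called lower (2.22%). The medians of the 51 were 0.36, 0.694 and 0.546 in the same order.

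**Figure D2:**
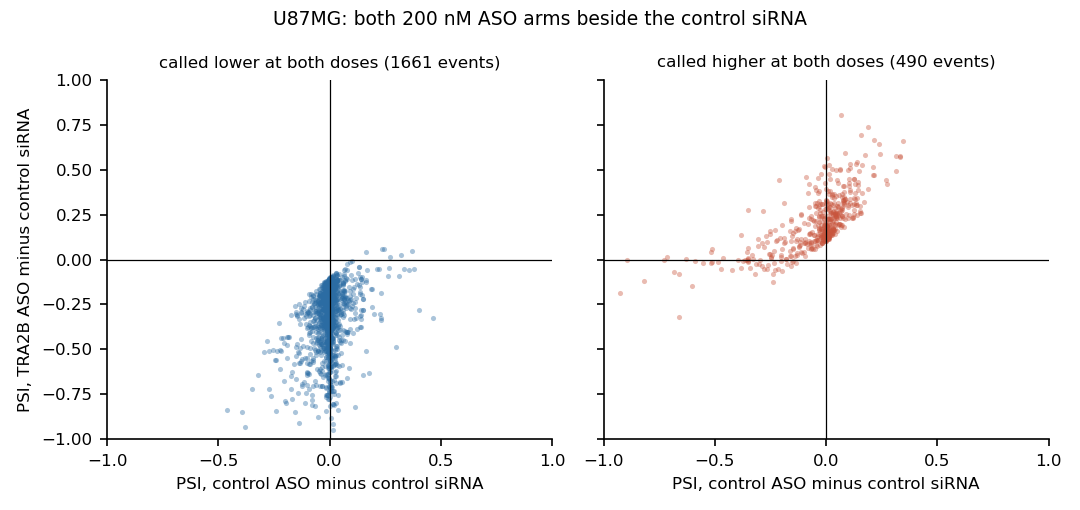
For U87MG events called lower (left, 1661) or higher (right, 490) at both doses, each point gives the mean PSI at 200 nM of ASO-CTL (x) and ASO-1570 (y), both minus the mean of siRNA-CTL. Most points called lower lie under the horizontal line near x = 0, and among those called higher a tail runs to the left along y = 0, where ASO-1570 lies at the siRNA control level and ASO-CTL below it.

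Between doses, 2779 events were called in U87MG at both, which is 53.5% of the 5196 called at 200 nM and 80.1% of the 3470 called at 50 nM among 19013 tested in both, and 2778 had the same direction. Between lines at 200 nM, 310 events were called in both, 81.8% of the MDA-MB-231 calls and 6.1% of the U87MG calls, all 310 in the same direction. Of the MDA-MB-231 calls tested in U87MG, 96.0% had the same sign there. The MDA-MB-231 calls of lower PSI had a median change of -0.355 in that line and of -0.429 in U87MG.

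Whether the change itself differed between the lines was tested as an interaction over all events. At 200 nM it differed for 3148 of 33599 frame-shifting events (9.37%, beside 8.08% of all events), 3005 of them with the larger change in U87MG, and at 50 nM for 1519 of 26552 (5.72%, beside 4.9%). With siRNA it differed for 1 of 17790 events, in NPR2 (0.00562%, beside 0.00571%). A poison-type exon of TMEM159, a lipid droplet protein, had PSI 0.017, 0.016 and 0.021 in U87MG controls and 0.423, 0.478 and 0.453 with ASO-1570, and stayed between 0.0 and 0.004 in all 6 MDA-MB-231 libraries (difference of changes -0.43, limma adjusted p = 1.67e-05). Inclusion of its 191 bases gives an early stop inside the exon, and TMEM159 mRNA rose by 0.81 in U87MG and by 0.72 in MDA-MB-231. A 181-base exon of MARK3, a microtubule affinity kinase, went from a mean of 0.041 to 0.571 in U87MG beside 0.016 and 0.023 in MDA-MB-231, in an event that passes over 1 other exon. Of the 3 events of this exon in U87MG, 1 was called higher (0.53) and 1 lower (-0.216), with a median of 0.068, so the direction holds for that event and not for the exon as a whole.

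CPSF4, a subunit of the cleavage and polyadenylation complex, had its 73-base coding exon at 1.0 in every U87MG control library and at 0.281, 0.305 and 0.241 with ASO-1570, beside means of 1.0 and 0.997 in MDA-MB-231. That event passes over 2 other exons, and the second event of the exon was called lower with a change of -0.148. The 100-base decay exon of COPS8, a COP9 signalosome subunit, was lost in both lines, from 0.642 to 0.004 in U87MG and from 0.182 to 0.01 in MDA-MB-231, from control levels that differed between the lines, in an event that passes over 1 other exon. COPS8 mRNA rose by 0.53 in U87MG and by 0.22 in MDA-MB-231. The interaction counts moved with single libraries at 50 nM, from 776 without MDA-MB-231 control library 2 to 2908 without U87MG treated library 3.

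The host genes were next described by role, with 8 lists. Among all tested frame-shifting events in U87MG at 200 nM, 17.1% were lower and 4.3% higher (14.1% and 5.46% of all splicing events), and of all genes 23.9% fell and 25.8% rose, so a list's counts are read beside those shares. No list was tested against the rest. Events of nonsense-mediated decay factors were lower in 14 of 51 in U87MG at 200 nM (27.5%, 6 genes) and higher in none, and by edgeR 4 of the 19 genes tested rose and 9 fell. The excess did not recur at 50 nM in U87MG. There 4 of 45 of their events were lower (8.89%, 3 genes), beside 12.0% of all frame-shifting events. SMG1, the kinase that phosphorylates UPF1, kept a 191-base exon at 0.991, 0.998 and 0.994 in controls and at 0.751, 0.622 and 0.605 with ASO-1570. SMG1 mRNA was at -0.23 (adjusted p = 0.338). RNPS1, a peripheral exon junction complex protein, went from 0.662 to 0.421 over an exon of 188 bases that holds a start or stop codon, in an event that passes over 1 other exon, and its mRNA fell by 0.35. Of 3 events of that exon, 2 were called lower, and the changes ran from -0.241 to -0.092. With siRNA in U87MG that exon had means of 0.693 and 0.559 without overlap, which did not pass (limma adjusted p = 0.613).

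Among splicing regulators, 53 of 255 events were lower (20.8%, 28 genes) and 12 higher (4.71%, 11 genes), and 38 genes rose and 20 fell of 93. The share lower was near the 17.1% of all frame-shifting events. RBM10, an RNA-binding splicing regulator mutated in lung cancer, had an 88-base exon at 0.892, 0.927 and 0.898 and then 0.317, 0.229 and 0.261, in an event that passes over 4 other exons, with a gene change of -0.05 (adjusted p = 0.472). The 76-base exon of HNRNPC went from 1.0 in each control to 0.324, 0.366 and 0.242, in an event that passes over 2 other exons, and HNRNPC mRNA rose by 0.49. Of 4 events of that exon 2 were called lower, and the changes ran from -0.689 to -0.024 with a median of -0.162. In MDA-MB-231 its control libraries alone spread from 0.52 to 1.0.

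DNA repair and replication genes had 54 of 293 events lower (18.4%, 22 genes) and 10 higher, while 40 of the 53 genes fell and 8 rose, with a median gene change of -0.52. The exon share was near the 17.1% of all frame-shifting events, and the genes fell in 40 of 53 beside 23.9% of all genes. ATR, the kinase that signals replication stress, lost its 92-base exon 2 from 0.95, 1.0 and 0.971 to 0.294, 0.206 and 0.203 in U87MG at 200 nM (change -0.74, limma adjusted p = 0.000355) and from 0.97, 0.985 and 1.0 to 0.292, 0.39 and 0.553 in MDA-MB-231 (-0.57, adjusted p = 0.0299). Skipping it gives a stop 8 codons past the junction. ATR mRNA fell by 0.41 and by 0.4 (edgeR adjusted p = 0.022 and 0.0419), and with siRNA in U87MG the exon stayed at means of 0.988 and 0.99. BRIP1, the helicase partner of BRCA1, went from 1.0 in each control to 0.427, 0.443 and 0.43 over a 155-base exon, and its mRNA fell by 0.96.

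Mitosis and centrosome genes had 29 of 168 events lower (17.3%, 13 genes) and 6 higher, and 36 of 48 genes fell and 2 rose (median -0.88), beside 17.1% of all frame-shifting events lower and 23.9% of all genes that fell. CEP63, a centriole duplication protein, had a 253-base exon of decay transcripts at 0.901, 0.932 and 0.916 in MDA-MB-231 controls and at 0.29, 0.252 and 0.39 with ASO-1570, and at means of 0.459 and 0.082 in U87MG. In U87MG the siRNA-CTL mean of that exon was 0.918, another level at which ASO-CTL and siRNA-CTL differ. A 230-base exon of CEP164, a distal appendage protein, moved up from 0.016, 0.013 and 0.008 to 0.16, 0.158 and 0.183, with an early stop inside it, and CEP164 mRNA fell by 0.54. For ANAPC10, a subunit of the anaphase-promoting complex, the 121-base exon went from 0.874 to 0.542 and the gene was at 0.14 (adjusted p = 0.152). Of 5 events of that exon 3 were called lower, with changes from -0.332 to -0.042.

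Of chromatin and transcription events, 51 of 228 were lower (22.4%, 23 genes) and 12 higher, beside 17.1% lower among all frame-shifting events. The last but one coding exon of HDAC1, a histone deacetylase, had 49 bases and PSI 0.996, 0.999 and 0.996 in controls and 0.554, 0.473 and 0.508 with ASO-1570, with a stop too late for decay. MDA-MB-231 gave 0.667, 0.679 and 0.787 against 0.996 or more in each control. HDAC1 mRNA fell by 0.3 and by 0.21. In HDAC3 an 80-base exon went from 1.0 in each control to a mean of 0.25 in U87MG and 0.726 in MDA-MB-231, in an event that passes over 2 others, and the adjoining exons 21 and 22 of ATRX, a chromatin remodeller, went from 0.999 each to 0.572 and 0.343, each in an event that passes over 1 other exon. The other event of the HDAC3 exon was at -0.036 in U87MG and was not called.

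Cell death genes had 25 of 85 events lower (29.4%, 13 genes) and 2 higher, beside the same 17.1%. MDM2, the ubiquitin ligase that limits p53, had its 50-base exon 5 at 1.0, 0.995 and 1.0 and then 0.132, 0.083 and 0.11 (change -0.89, limma adjusted p = 0.00011) in an event that passes over 1 other exon, and MDM2 mRNA rose by 0.75 in U87MG. Of 6 events of that exon 4 were called lower, with changes from -0.89 to -0.261. In MDA-MB-231 the treated values were 0.6, 0.264 and 0.674, which did not pass (adjusted p = 0.116), and the mRNA fell by 0.86. CASP6, an effector caspase, went from a mean of 0.879 to 0.165 over 43 bases in an event that passes over 2 other exons. Of 3 events of that exon 2 were called lower, and the changes ran from -0.714 to -0.047 with a median of -0.177.

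Kinase and GTPase genes had 36 of 165 events lower (21.8%) and 6 higher, and membrane traffic and cytoskeleton genes 21 of 123 lower (17.1%) and 7 higher, the latter list at the share of all frame-shifting events. ARHGEF7, an exchange factor for RAC1, had its 85-base exon called higher, from a mean of 0.368 to 0.925, beside 0.884 with siRNA-CTL, in an event that passes over 1 other exon. Of 3 events of that exon 2 were called higher, with changes from 0.024 to 0.557. ACTN4, an actin crosslinker, went from 0.988 to 0.511 over 86 bases and its mRNA fell by 0.66. In MDA-MB-231 at 200 nM the 8 lists held between 0 and 3 events lower each, beside 1.3% of all frame-shifting events, and at 50 nM none in either direction.

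The early stops predicted above made the level of the host gene the next question. In U87MG at 200 nM, 23.9% of all 26159 genes fell and 25.8% rose by edgeR, with a median log2 change of 0.02. The 1402 genes with a coding exon called lower had a median of -0.17, and 43.0% fell and 22.4% rose. Genes whose tested coding exon moved by less than 0.05 had a lower median, -0.25, and 48.0% of those 2300 genes fell. Where the exon length divides by 3, the 1354 genes with a coding exon called lower had a median of -0.09 and 37.6% fell.

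Larger skipping did not go with a larger loss of mRNA. Among genes whose skipped exon gives an early stop, each entered once with its called exon of smallest p, the median was -0.23 for PSI changes from -0.2 to -0.1 (612 genes), -0.16 from -0.3 to -0.2 (211 genes), -0.22 from -0.5 to -0.3 (187 genes) and -0.07 beyond -0.5 (63 genes). With each gene's largest loss instead, Pearson's r between PSI change and gene change was -0.14 over the 1073 genes of the same libraries, Spearman's rho -0.04. For the 176 genes with a called gain of an exon that is absent from coding transcripts and overlaps no coding exon, the median was -0.08, with 63 that fell and 53 that rose. At 50 nM in U87MG, 48.4% of 925 genes with a coding exon called lower fell and 24.1% rose, beside 26.7% and 27.9% of all genes, and r was -0.16 over 690 genes. Genes whose coding exon moved by less than 0.05 there fell about as often, in 49.1% of 2272.

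In MDA-MB-231 at 200 nM, 26 of 63 genes with a coding exon called lower fell (41.3%) and 10 rose, with a median of -0.19, beside 13.6% and 11.7% of all genes. Genes whose coding exon moved by less than 0.05 fell in 25.9% of 2169, with a median of -0.11. Where the coding exon called lower leaves the reading frame unchanged, 33 of 100 genes fell (33.0%) and 7 rose. Their median was also -0.19, so the median did not set the frame-shifting exons apart. At 50 nM, where 13.2% of all genes fell and 10.1% rose, 9 of 43 host genes of any called exon fell (20.9%) and 7 rose. That is near the 21.9% that fell among all 6467 host genes of a tested frame-shifting exon.

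**Figure D3:**
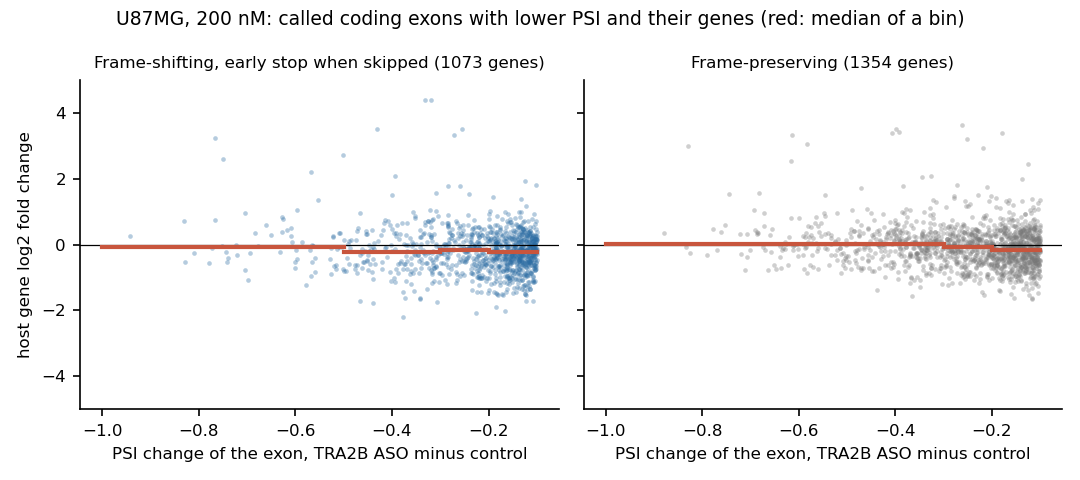
Host gene log2 fold change against the PSI change of its called coding exon in U87MG at 200 nM, 1 point per gene (its called exon of smallest p), for frame-shifting exons with an early stop on skipping (left, 1073 genes) and exons whose length divides by 3 (right, 1354 genes); red bars are medians of the bins. The left medians run between -0.07 and -0.23 with no trend towards the largest PSI losses.

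Single genes went both ways. ZNF440 mRNA rose by 1.64 in U87MG (edgeR adjusted p = 2.62e-07) while its exon was lost, with a stop too late for decay. FCF1 mRNA fell by 1.22 in MDA-MB-231 while its 68-base coding exon 2 went up from 0.784, 0.836 and 0.845 to 1.0, 0.994 and 1.0. Beside siRNA-CTL, the ASO-CTL mean of that event differed by -0.178 and the ASO-1570 mean by -0.002. Of 5 events of that exon in MDA-MB-231 1 was called, and the changes ran from -0.07 to 0.459. In GMNN, the geminin gene that restrains replication licensing, the 83-base exon went from a mean of 0.812 to 0.987 in MDA-MB-231 and its mRNA rose by 1.29, and in U87MG from 0.857 to 0.984 with a rise of 0.62. TUBGCP5, a gamma-tubulin ring subunit, lost a part of its 179-base exon in both lines, from 1.0 in each control to means of 0.788 in MDA-MB-231 and 0.775 in U87MG, and its mRNA fell by 1.24 and by 2.09. In CTDSPL, a small phosphatase, a 122-base exon went from 0.899 to 0.599 and from 0.873 to 0.434, with falls of 1.46 and 1.31, and a second event of that exon in U87MG was at -0.05 and was not called. The link between exon and mRNA was not tested.

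With siRNA against TRA2B no frame-shifting event was called in either line, beside 0.0% of all events, although TRA2B fell more than with the ASO. By limma, 1340 of 21244 events in MDA-MB-231 (6.31%) and 1297 of 22217 in U87MG (5.84%) had an unadjusted p below 0.05, and the smallest adjusted p was 0.096 and 0.0929. Over the exons that the ASO moved, siRNA values were close to their controls: for 1717 events called lower in U87MG at 200 nM and tested with siRNA, the median change was -0.242 with the ASO and -0.012 with siRNA, and 55.4% of all 2578 called events had the same sign. Pearson's r between the ASO and the siRNA change over 13531 events of U87MG was 0.04.

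A fit of all 4 siRNA groups together, which shares 1 estimate of the spread, called 55 events in MDA-MB-231 (43 lower, 12 higher) and 54 in U87MG (32 lower, 22 higher) of 17790, which is 0.309% and 0.304%, beside 0.309% and 0.312% of all splicing events tested. Of the exons, 9 were lower and 1 higher in both lines. PTAR1, which encodes a prenyltransferase-like protein, had its 170-base exon 2 at 0.839, 0.823 and 0.873 with siRNA-CTL and at 0.67, 0.622 and 0.642 with siRNA-TRA2B in U87MG, and at means of 0.866 and 0.661 in MDA-MB-231. The groups did not overlap, and limma on all groups gave adjusted p = 0.0152 and 0.0145, against 0.455 and 0.396 on the 2 groups alone. With ASO-1570 the U87MG means were 0.904 and 0.717 (adjusted p = 0.0185), and a second event of the exon was at -0.054 and was not called.

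MAIP1, a mitochondrial matrix protein, had its 148-base exon at 0.842, 0.879 and 0.837 and then 0.652, 0.611 and 0.65 in U87MG with siRNA, at 0.903, 0.88 and 0.885 and then 0.732, 0.696 and 0.699 in MDA-MB-231 with siRNA, and at 0.864, 0.86 and 0.864 and then 0.547, 0.483 and 0.53 with the ASO in U87MG. All 3 comparisons moved the same way without overlap, with adjusted p of 0.00559, 0.0162 and 0.0015 by limma (all groups for siRNA). The DNAAF4-CCPG1 exon of 146 bases, in a readthrough transcript, went from 0.626 to 0.279 in U87MG and from 0.715 to 0.42 in MDA-MB-231 with siRNA, and from 0.728 to 0.514 with the ASO in U87MG.

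RIPK2, a kinase of innate immune signalling, went from 0.554, 0.574 and 0.536 to 0.337, 0.345 and 0.393 in U87MG with siRNA over a 154-base exon, and the ASO moved the same exon from a mean of 0.484 to 0.309 there and from 0.395 to 0.208 in MDA-MB-231. AZIN1, the antizyme inhibitor, had a 146-base UTR exon at 0.361 and 0.217 with siRNA and at 0.246 and 0.105 with the ASO in U87MG. Exons of PHF3 and IFI44, which hold a start or stop codon, and exons of the noncoding RNAs DLEU2 and APCDD1L-DT were lower with siRNA as well, the last through different events in the 2 lines. With the ASO, the DLEU2 exon was called lower in no comparison, and 1 of its 2 events was called higher in MDA-MB-231 at 50 nM (0.306). No event of the PHF3 exon was called at 200 nM in either line or at 50 nM in U87MG. Of 3 events of the APCDD1L-DT exon, 2 were called lower in U87MG at each dose. PRMT2, an arginine methyltransferase, was the exon called higher in both lines, with a 109-base UTR exon at 0.363 and 0.516 in U87MG and at 0.436 and 0.554 in MDA-MB-231. With ASO-1570 its U87MG means were 0.253 and 0.317, which did not pass.

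TRA2A is the closest relative of TRA2B, and its 79-base exon lies only in decay transcripts. PSI was 0.121, 0.126 and 0.135 with siRNA-CTL and 0.024, 0.026 and 0.021 with siRNA-TRA2B in U87MG (all groups adjusted p = 0.00111 by limma), and 0.064 and 0.01 on average in MDA-MB-231, a change below 0.10. TRA2A mRNA rose by 1.55 in U87MG (edgeR adjusted p = 3.08e-09) and by 1.05 in MDA-MB-231 (adjusted p = 2.1e-07). With ASO-1570 the exon means were 0.138 and 0.108 in U87MG at 200 nM, and TRA2A mRNA rose by 1.45. The range of that event over the libraries was too small for it to be tested.

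**Figure D4:**
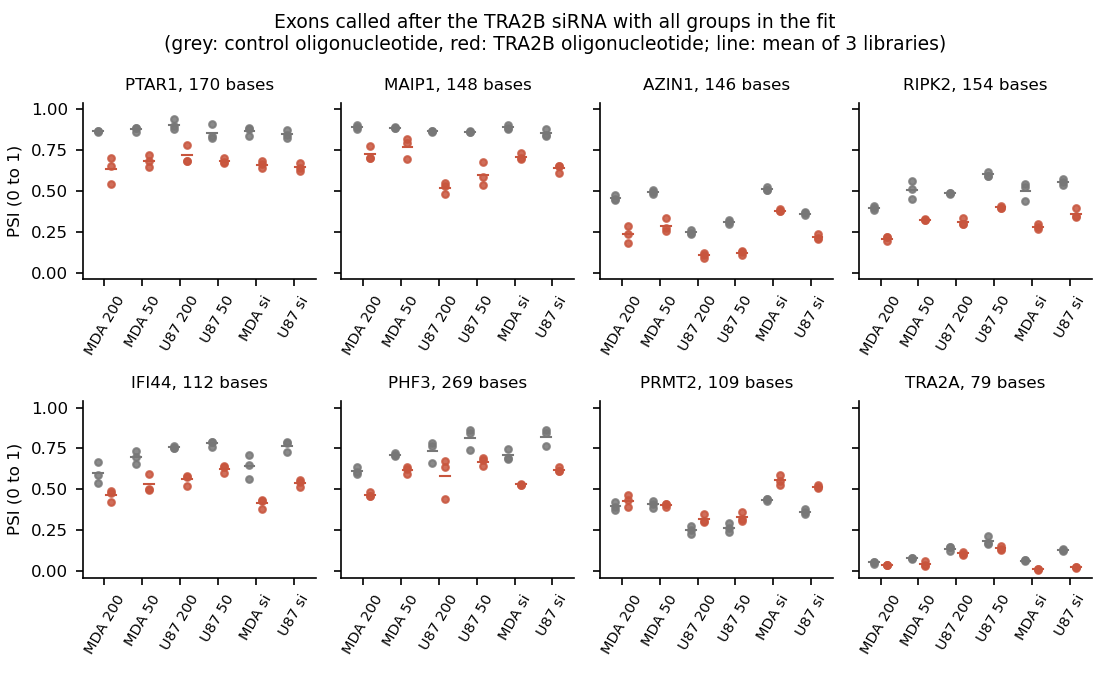
PSI per library of 7 exons called in both lines after siRNA-TRA2B when all siRNA groups were fitted together, and of the 79-base TRA2A exon, which was called in U87MG; axes and colours as in the plot of the exons shared between ASO comparisons. In the siRNA columns the treated libraries lie below the controls for every exon shown except PRMT2, and in most ASO columns they lie below as well.

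The share of exons that hold AGAA was described for each response, with no test of the difference. Exons called lower with siRNA in either line, 37 in all, held AGAA in 86.5% and at 1.53 per 100 bases, beside 54.9% and 0.823 for the exons tested there, with a median length of 145 against 116 bases. The 18 called higher held it in 44.4% at 0.556 per 100 bases. In U87MG at 200 nM, single-exon events called lower held it in 62.7% at 0.993 per 100 bases and those called higher in 56.5% at 0.76, beside 56.8% and 0.859 for those tested. In MDA-MB-231 the 120 called lower at 200 nM held it in 65.0% at 1.25 per 100 bases, beside 55.7% and 0.845 for those tested, and the 13 called lower at 50 nM in 53.8% at 0.605, beside 54.4% and 0.814. The sets also differed in their share of A, the main base of AGAA. It was 31.3% in the 37 exons lower with siRNA, beside 25.9% in those tested. At 200 nM it was 30.5% in MDA-MB-231 exons called lower and 29.8% in those called higher, beside 26.3%. U87MG exons called lower at 200 nM had 27.9%, beside 26.3%, and MDA-MB-231 ones at 50 nM 25.6%, beside 25.9%. The part of base composition in the AGAA shares was not tested. These shares are a description of which letters the exons hold, and binding was not measured.

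In the tumours no frame-shifting event was called of 22183 tested, beside 0.0% of all events. In limma 778 events (3.51%) had an unadjusted p below 0.05, and the smallest adjusted p was 0.763. The groups did not overlap in 111 of the 22183 events. An exact permutation test of 5 against 5 tumours reaches p = 0.00794 at such a separation. That is the share of events expected by chance alone, and the 111 events did not exceed it. Of 2048 events called in U87MG at 200 nM and tested in the tumours, 49.7% had the same sign, and the 1400 called lower had a median change of 0.007. The HDAC1 exon had means of 0.992 and 0.998 and the MAIP1 exon 0.976 and 0.988. TRA2B did not pass in the tumours either, and part of the depth of each tumour went to mitochondrial transcripts, at shares that ranged widely. These were 22.76, 38.06, 64.16, 75.31 and 64.32% with ASO-1570. With ASO-CTL they were 17.65, 38.03, 29.79, 26.8 and 53.89%, so the depth left for other genes also differed between the groups. The part of these shares and of TRA2B in this result was not tested. In tumour tissue, fewer cells of a type and less RNA per cell cannot be told apart.

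At the edges of the length range, in U87MG at 200 nM, 11 of 85 events of 31 bases and 12 of 58 of 32 bases were called, beside 10 of 62 of 28 bases and 5 of 42 of 29 bases at the lower edge. At the upper edge 3 of 17 events of 298 bases and 1 of 10 of 299 bases were called, beside 3 of 15 of 301 bases and 6 of 11 of 302 bases.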

How the data were processed

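RNA was sequenced as stranded paired-end mRNA libraries, per the labels' protocols. FastQC, MultiQC, Trimmomatic, STAR and StringTie, and the build GRCh38, are named without versions in the submitters' processing notes; rMATS, named for the splicing tables, has no version given in the sources used here. The deposited gene tables hold raw counts per gene, and the deposited splicing tables hold 1 PSI value (a fraction) per event and library by the authors, without the reads behind it, so the precision of a single PSI is unknown.

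Computed here: limma 3.58.1 (trend) on PSI over all events with a value in every library of the 2 groups and a range of at least 0.05, and edgeR 4.0.16 quasi-likelihood tests (TMM, filterByExpr, all groups of a table in 1 fit) on the counts, both with Benjamini-Hochberg adjustment. An exact permutation test of 3 against 3 libraries cannot go below p = 0.1. On simulated PSI with 4000 of 40612 events changed by 0.25, 3031 were recovered with 187 false calls. With 200 changed, 46 were recovered with 7 false calls. Only events of intermediate control PSI were simulated, with independent normal noise. The recovery does not cover exons near the ends of the scale. Most coding exons lay there (median control PSI 0.98 in U87MG at 200 nM). So did most exons that are absent from coding transcripts and overlap no coding exon (0.144). On simulated counts, 180 of 200 genes changed 2-fold were recovered.

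Exons named were those with the largest changes, those called in most comparisons, those smallest in p within 8 lists of host genes, those that differ most between lines and those whose host genes changed most, plus those called in both siRNA comparisons; TRA2A was chosen after its values were seen. GENCODE release 29 gave exon classes and sequences. The members and lists were chosen with earlier results of these data known. DESeq2 1.42.0, other filters, a logit scale and leaving out libraries were the alternatives.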

Additional observations from a re-analysis of the deposited data

Results flagged for a closer look

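Among 24 PDX groups of 5 tumours examined for the exons shared between comparisons, 4 held a tumour whose distance to the nearest other exceeded the 95% limit of Dixon's test; chance alone flags about 5% of groups. They were the lowest ASO-1570 tumour for the 136-base exon of FCF1 (PSI 0.976) and for the 188-base exon of GORAB (0.909), the highest ASO-CTL tumour for the 146-base exon of AZIN1 (0.558) and the lowest ASO-CTL tumour for the 148-base exon of MAIP1 (0.941).

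Several exons were picked out because the PSI change differed between the lines by limma's interaction test. As MDA-MB-231 minus U87MG, the difference of changes at 200 nM was -0.433 for TMEM159, -0.523 for MARK3, 0.721 for CPSF4, 0.465 for COPS8, 0.249 for PWWP2A and 0.167 for EFCAB7. At 50 nM it was -0.509 for TMEM159, 0.481 for COPS8, 0.242 for PWWP2A, 0.191 for EFCAB7 and -0.734 for RACGAP1, whose U87MG treated values at 200 nM were 0.252, 0.0 and 1.0. With siRNA it was 0.263 for the 95-base exon of NPR2, a natriuretic peptide receptor, which had PSI 0.701, 0.771 and 0.753 and then 1.0 in each treated library of MDA-MB-231.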

How the results depend on the processing

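No value tested under the alternatives run reversed its direction. The counts of called events in MDA-MB-231 depended most on the fit: at 200 nM 391 became 984 on a logit scale, 136 without the range filter and 1249 with all groups of the table, and at 50 nM 46 became 200, 19 and 335, and 81 with host genes of at least 10 CPM (chosen after seeing the data). In U87MG a threshold of 0.20 left 3620 of 6560 events at 200 nM and 2178 of 3716 at 50 nM. With siRNA, MDA-MB-231 gave 1 event without the range filter and 55 with all groups, and U87MG 54 with all groups.

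With the replicate block the counts were 0 and 0 in MDA-MB-231 at 200 and 50 nM and 4371 and 1165 in U87MG. Same-numbered cell line libraries did not deviate together (correlations of log2 CPM from -0.088 to 0.102), so the numbers do not pair them, and in the tumours the correlations ran from -0.209 to 0.774.

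Leaving out 1 library gave 66 to 1041 events in MDA-MB-231 at 200 nM, 14 to 208 at 50 nM, 4614 to 6850 and 1420 to 4708 in U87MG (the lowest without control library 2 at 50 nM), 1 to 4 and 2 to 7 with siRNA, and 0 in the tumours. Host genes of called exons that changed numbered 94 to 154 and 10 to 16 in MDA-MB-231, 1934 to 2075 and 1478 to 1656 in U87MG. Events that differ between lines numbered 2461 to 3921, 776 to 2908 and 0 to 7 with siRNA (chosen after seeing the data). Of the named PSI changes, 428 leave-one-out values no longer passed and 1174 kept their side of the threshold. Reads behind each PSI are unknown, which limits exons of low genes most.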

Other observations

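Several of the largest PSI changes stood in genes with very low counts. CATSPERE, a sperm calcium channel subunit, went from 0.0 in each U87MG control at 200 nM to 1.0 in each treated library at a control level of 0.275 CPM, and at 50 nM its control values were 1.0 and 0.0 with 1 library empty. CALCRL, the calcitonin receptor-like receptor, went from 1.0 to 0.0 in MDA-MB-231 at 50 nM at 0.252 CPM. Among better expressed genes, NAP1L4, a histone chaperone at 170 CPM, had a 110-base decay exon at 1.0 in each MDA-MB-231 control and at 0.03, 0.008 and 0.013 with ASO-1570, while its U87MG control values were 0.92, 0.33 and 0.479. The 191-base decay exon of FAT1, an atypical cadherin at 805 CPM (an event that passes over 1 other exon, as does that of NAP1L4), went from 1.0 in each U87MG control at 50 nM to 0.017, 0.012 and 0.014, and the mRNA was at 0.19 (edgeR adjusted p = 0.188). Of 5 events of the FAT1 exon there, 4 were called lower, and the changes ran from -0.986 to 0.076.

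A 97-base exon of DCK, the kinase that activates deoxycytidine and its drug analogues, went from 1.0 in each control to a mean of 0.048 in MDA-MB-231 at 200 nM and to 0.022 in U87MG at 50 nM, in an event that passes over 1 other exon. Its mRNA was at -0.18 in the first (edgeR adjusted p = 0.236) and fell by 0.52 in the second.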
